A study of Mus musculus with 4 samples.

Results

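Translation initiation and elongation factors are the proteins that place ribosomes on messenger RNA and move them along it. They were taken here as the protein-coding genes of the deposited table whose symbol begins with Eif1 to Eif6, Eef1 or Eef2. The rule used names alone and gave 68 of 54532 genes. They were measured by RNA sequencing in 4 mouse libraries labelled as CD4+ T cells out of B16 tumours, which grow from a pigmented melanoma line, and libraries are numbered by their titles. Of these, 2 have the genotype WT and 2 the genotype Piezo1KO, in which Piezo1, the gene of a mechanically gated cation channel, is named as knocked out, and the treatment of all 4 is given as tumor microenviroment. The part of Piezo1 removed, the cells in which it was removed, the strain, the age and any pooling of animals are missing from the labels. Whether the 2 libraries of a genotype came from different animals is likewise not given, so each p-value reflects the spread between libraries alone, and that spread may be technical.

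Initiation begins when eIF2, carrying GTP and the initiator tRNA, joins the small ribosomal subunit together with eIF1, eIF1A, eIF5 and the large eIF3 complex. The cap-binding complex of eIF4E, eIF4G and the helicase eIF4A brings this assembly to the messenger, and eIF5B joins the large subunit at the start codon. Elongation then runs on eEF1A, which delivers each aminoacyl-tRNA, eEF1B, which recharges eEF1A with GTP, and eEF2, which moves the ribosome by a codon. Cells adjust this machinery mainly at the protein level: kinases phosphorylate eIF2 under stress, and 4E-BPs bind eIF4E when the kinase mTORC1 is less active. Messenger levels, which are all that was measured here, do not report on those protein states.

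Piezo1 was measured first, as a check of the labels. Its level was 27.8 and 27.6 FPKM (fragments per gene, divided by gene length and by library size) in WT 1 and WT 2, 18.7 in Piezo1KO 1 and 7.64 in Piezo1KO 2, a difference of -1.14 on the log2(FPKM + 1) scale (SE 0.41, limma adjusted p = 0.166). Relative to all assigned reads it passed, at -1.87 (limma adjusted p = 6.37e-04), and it passed with either Piezo1KO library left out, at -1.73 without Piezo1KO 1 and -0.55 without Piezo1KO 2. Under the other settings it did not pass, with adjusted p from 0.117 with a replicate block to 0.657 without WT 2, and its difference was -0.83 with the trend with gene length taken out. The labelled cell type did not match its markers. Of 11 T cell genes, the summed level was 1.81, 1.86, 14.7 and 7.80 FPKM in WT 1, WT 2, Piezo1KO 1 and Piezo1KO 2, with 5, 2, 1 and 3 of them at 0 reads. Il9 was at 0 in every library, Cd3g, Cd2, Trac and Trbc2 were at 0 in WT 1, Cd3e was at 0 in Piezo1KO 2, and Cd5 was at 0 in WT 2 and Piezo1KO 2. The summed level of 10 melanocyte genes lay between 6784 and 7465 FPKM. Several other measures differed between the genotype labels: mitochondrial genes took 3.86% and 2.99% of assigned reads in WT against 20.1% and 48.3% in Piezo1KO, 5 erythroid genes summed to 389 and 244 against 5124 and 8472 FPKM, and 10 myeloid genes to 60.8 and 44.8 against 449 and 268 FPKM. Assigned reads ran from 13789266 to 15892797 per library. The part of these differences in the results below was not tested, and in bulk RNA fewer cells of a type and less RNA per cell cannot be told apart.

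The levels of the members leaned towards the Piezo1KO libraries without a single one passing the test. Of the 68 members, 63 had a mean of at least 1 FPKM over the 4 libraries and were tested with limma among 11085 genes, with a median of the members' means of 34.9 FPKM against 6.84 FPKM over all genes tested. None of the 63 passed at an adjusted p under 0.05, against 1.1% of all genes tested, and the lowest adjusted p of a member was 0.0717. At an unadjusted limma p under 0.05 there were 15 members higher in Piezo1KO, or 23.8% against 14.9% of all genes. There were 6 lower, or 9.52% against 13.7% of all genes. A fit by voom on whole reads also called 0 members, against 0.74% of all genes, with 26 of 63 members at an unadjusted p under 0.05 against 31.1% of all genes.

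The direction of the 63 was uneven. Both Piezo1KO libraries lay above both WT libraries for 39 members, or 61.9% of those tested, against 33.9% of all genes, and below both for 10, or 15.9%, against 35.6% of all genes. The remaining 14 overlapped. Log2 differences were above 0 for 49 members, or 77.8%, against 49.6% of all genes, and ran from -0.89 to 1.30 with a median of 0.25, where the median of all genes was -0.0059. Taken against the WT mean, the median member stood at 0.21 in Piezo1KO 1 and 0.33 in Piezo1KO 2. The median SD between libraries of a genotype was 0.051 in WT and 0.20 in Piezo1KO on the log2 scale, so the Piezo1KO pair carried most of the spread.

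**Figure D1:**
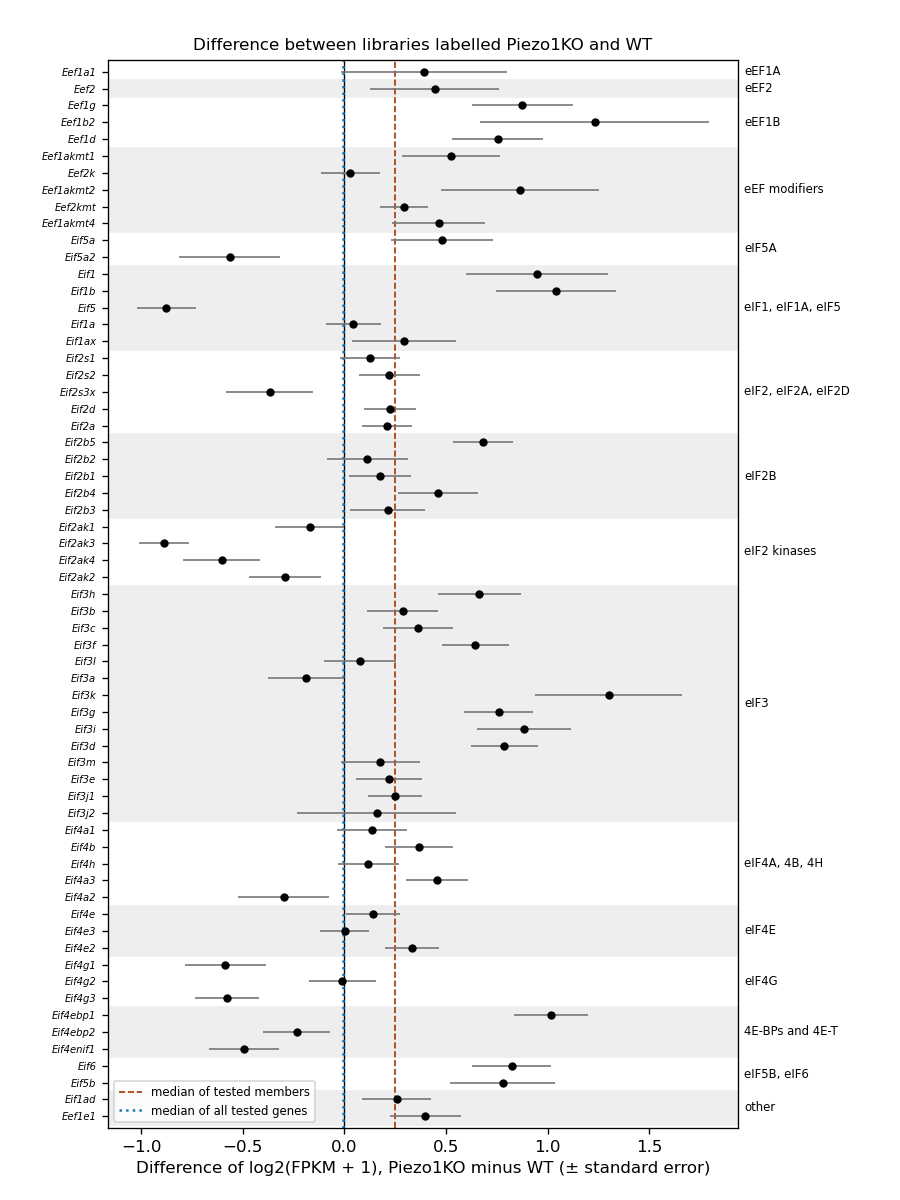
Difference of log2(FPKM + 1) between Piezo1KO and WT for the 63 tested members (points, with bars of 1 standard error from limma), grouped by role; the dashed line is the median of the members and the dotted line that of all tested genes. Most points lie right of 0, while the eIF2 kinases, the eIF4G scaffolds and Eif5 lie left of it, and none passed the test.

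That lean depended on how libraries were scaled. With each library scaled to all assigned reads, which count the mitochondrial ones, the median of all genes moved to -0.67 and that of the members to -0.50, with 10 members above 0 and 53 below. Of the 63, 42 then stood above the median of all genes. Under that scaling 6 members passed the test, all lower in Piezo1KO, or 9.52% against 15.4% of all genes: Eif5 at -1.67, Eif2ak3 at -1.56, Eif4g1 at -1.39, Eif4g3 at -1.30, Eif2ak4 at -1.18 and Eif2s3x at -1.14. Scaling to reads outside mitochondrial genes put the members at 0.041 and all genes at -0.20. With that scaling limma called 0 members, against 1.24% of all genes. At an unadjusted limma p under 0.05 it gave 20 of 63 members and 3423 of 11085 genes. Quantile normalisation, which gives all libraries one distribution, left no lean at all, with the members at -0.066, all genes at -0.070, 27 members above 0 and 36 below. There 2 members passed, Eif5 at -1.27 and Eif2ak3 at -0.88, against 1.73% of all genes. Directions below are therefore those of the deposited scaling. A reversal under another scaling is given beside each printed log2 difference. For members given by FPKM alone it is given as a count for their group.

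**Figure D2:**
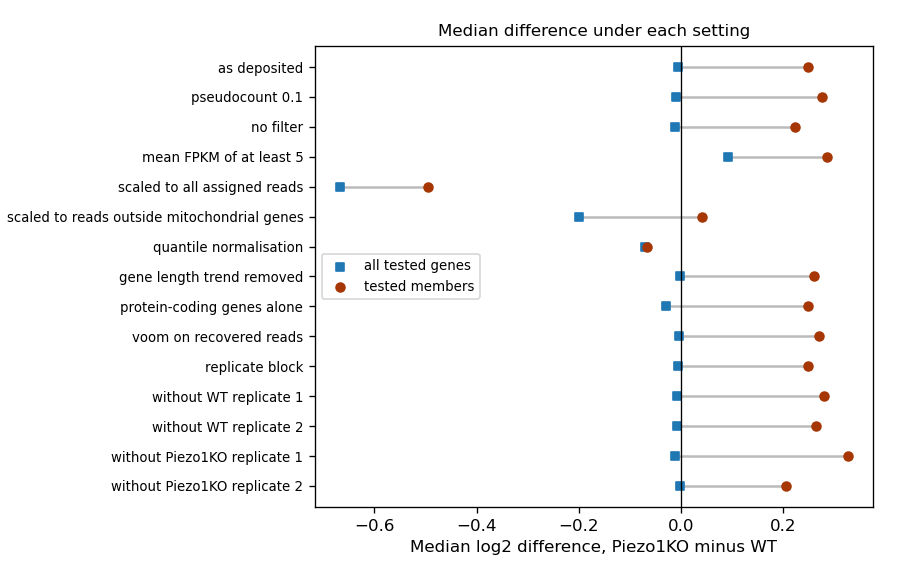
Median log2 difference, Piezo1KO minus WT, of the tested members (circles) and of all tested genes (squares) under each setting tried. The 2 medians part by about the same distance as deposited, at 0.25 and -0.0059, and with reads outside mitochondrial genes, at 0.041 and -0.20, and they coincide under quantile normalisation.

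The count of calls also changed with the library that was left out. Without Piezo1KO 1, 41 members passed (30 higher, 11 lower), or 65.1% against 52.9% of all genes. Without Piezo1KO 2, 17 passed (14 higher, 3 lower), or 27.0% against 14.2% of all genes. Without WT 1 the members' median log2 difference was 0.28, where that of all genes was -0.0070. With 1 library left out in turn, the members' median ran from 0.21 to 0.33. In each of these fits 1 group held a lone library, which was assumed to vary like the other group.

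The elongation factors gave the highest levels of the whole set. Eef1a1, the common form of eEF1A (chr9:78478449-78489151, GRCm38), stood at 2954 and 2703 FPKM in WT 1 and WT 2 and at 3383 and 4065 FPKM in Piezo1KO 1 and Piezo1KO 2. Among nuclear protein-coding genes it was the most abundant by FPKM in 3 libraries and ranked 4 in Piezo1KO 2. The Piezo1KO pair lay above the WT pair, by 0.39 on the log2 scale, with a standard error of 0.41 that was larger than the difference (adjusted p = 0.523). Eef2 (chr10:81176631-81182498) followed with 1293 and 1163 FPKM in WT and 1776 and 1569 FPKM in Piezo1KO, ranking 9, 9, 12 and 27, and a log2 difference of 0.44 (SE 0.32, adjusted p = 0.367). For both genes the order of the groups turned with the scaling: Eef1a1 was at -0.42 and Eef2 at -0.37 relative to all assigned reads, and at -1.62 and -1.21 after quantile normalisation. The ratio of Eef1a1 to Eef2, which 1 factor per library leaves as it is, was 2.28 and 2.32 in WT and 1.90 and 2.59 in Piezo1KO, so the WT values lay inside the Piezo1KO range. Eef1a2, the form of eEF1A known from muscle and neurons, had 6 reads in Piezo1KO 1 and 0 in the others.

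All 68 members together took 3.04% of assigned reads in WT 1 (exact 95% binomial interval 3.03% to 3.05%), 2.97% in WT 2 (2.96% to 2.98%), 2.75% in Piezo1KO 1 (2.74% to 2.75%) and 1.77% in Piezo1KO 2 (1.76% to 1.78%). These intervals cover counting error only, which is small at this depth. As a share of reads outside mitochondrial genes the order was the opposite, at 3.16% (3.15% to 3.17%) and 3.06% (3.06% to 3.07%) in WT and 3.44% (3.43% to 3.45%) and 3.42% (3.41% to 3.43%) in Piezo1KO. Eef1a1 alone made up 30.5% (30.4% to 30.7%) and 29.0% (28.9% to 29.2%) of the members' reads in WT and 29.5% (29.4% to 29.7%) and 31.1% (30.9% to 31.3%) in Piezo1KO, with the groups overlapping.

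The 3 subunits of eEF1B, the exchange factor of eEF1A, all lay higher in both Piezo1KO libraries than in both WT libraries. So did 33.9% of all genes tested. Eef1g, the structural subunit, stood at 226 and 235 FPKM in WT and 363 and 495 FPKM in Piezo1KO (log2 difference 0.88, SE 0.25, adjusted p = 0.140). Eef1d, an exchange subunit, stood at 29.4 and 28.1 against 40.6 and 59.4 FPKM (0.75, SE 0.22, adjusted p = 0.143). Eef1b2, the other exchange subunit, stood at 171 and 153 against 218 and 665 FPKM (1.23, SE 0.57, adjusted p = 0.217), and most of its difference came from Piezo1KO 2. Without that library its log2 difference was 0.43. Eef1d turned to -0.037 relative to all assigned reads and Eef1g to -0.15 after quantile normalisation, while Eef1b2 kept its sign under every scaling tried. Within eEF1B the most abundant subunit exceeded the least abundant 7.69 and 8.36 times in WT and 8.93 and 11.2 times in Piezo1KO.

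Among the enzymes that modify elongation factors, 5 of 6 were tested and all 5 differences were above 0 as deposited, where 4 were below 0 relative to all assigned reads, 1 relative to reads outside mitochondrial genes and 1 with the trend with gene length taken out. Eef2k, the kinase that inhibits eEF2, was nearly level, at 9.42 and 7.81 FPKM in WT and 8.50 and 9.06 FPKM in Piezo1KO. The methyltransferases of eEF1A included both abundant and scarce messengers. Eef1akmt1 stood at 18.0 and 16.9 against 20.4 and 31.8 FPKM, Eef1akmt2 at 3.62 and 4.79 against 5.50 and 12.6 FPKM, and Eef1akmt4 at 2.39 and 1.83 against 2.60 and 4.05 FPKM. Eef2kmt, which methylates eEF2, stood at 5.64 and 5.65 against 7.11 and 7.17 FPKM. In the last 4 genes both Piezo1KO libraries lay above both WT libraries, as they did in 33.9% of all genes. In 3 of these 4 Piezo1KO 2 was well above Piezo1KO 1. Over all genes tested, Piezo1KO 2 lay farther from WT than Piezo1KO 1, on the same side, in 60.6%.

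**Figure D3:**
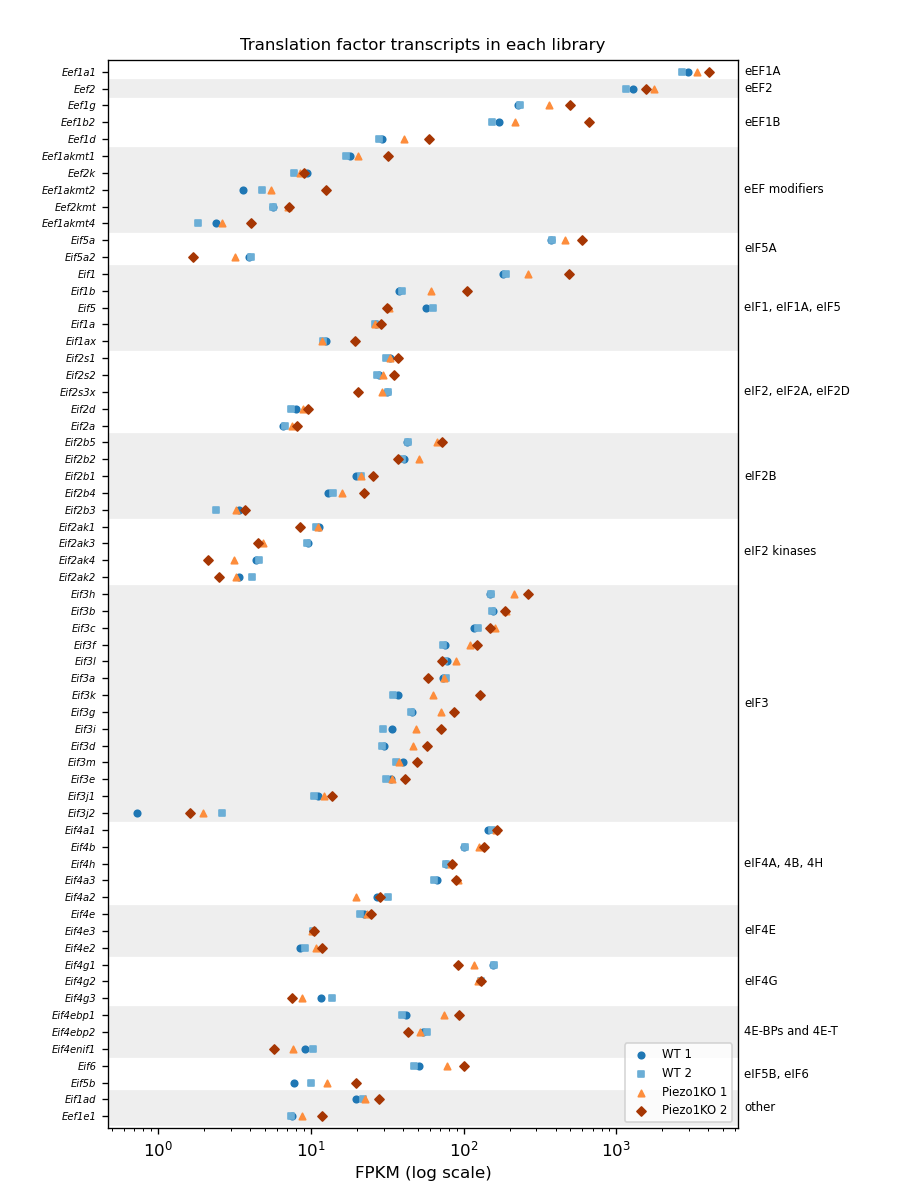
FPKM of each of the 63 tested members in each library (1 point per library, log axis), grouped by role. Eef1a1, at 2703 to 4065 FPKM, and Eef2, at 1163 to 1776 FPKM, stand apart from the rest.

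The paralogs of eIF5A parted. eIF5A carries hypusine, a modified lysine, and relieves ribosomes that stall on proline-rich stretches. Eif5a stood at 372 and 380 FPKM in WT and 461 and 598 FPKM in Piezo1KO (log2 difference 0.48, SE 0.25, adjusted p = 0.257, and -0.33 relative to all assigned reads or -0.67 after quantile normalisation). Eif5a2, the scarce paralog, stood at 3.92 and 4.06 against 3.21 and 1.70 FPKM. Their ratio was 94.9 and 93.5 in WT, 144 in Piezo1KO 1 and 352 in Piezo1KO 2, so the groups did not overlap, though the Piezo1KO libraries differed from each other more than Piezo1KO 1 did from WT. The enzymes that make hypusine, Dhps and Dohh, also had both Piezo1KO libraries above both WT libraries as deposited, with both differences below 0 relative to all assigned reads. Their WT libraries stood at 9.09 to 10.1 FPKM for Dhps, with 12.7 FPKM in Piezo1KO 1 and more in Piezo1KO 2. Dohh stood at 7.87 and 8.54 against 11.9 and 15.6 FPKM.

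Messengers of the translation machinery often begin with a terminal oligopyrimidine tract, a run of C and T at the transcript start through which mTORC1 controls their translation. The members' annotated RefSeq starts on GRCm38.p6 were searched on the gene's strand for a run of at least 8 bases, all C or T and beginning with C, within 5 bases of the start. Of the 68 members, 52 were matched in the promoter table, and 11 of their 67 starts, or 16.4%, held such a run, against 2534 of 32851 starts, or 7.71%, over all genes of the table. The 7 members whose run reached or followed the start follow. Eef2, a messenger abundant here, is given last and had no run in this window, and runs farther from its annotated start were not searched for. Each line gives 14 bases before the start and 16 from it, 5′ to 3′ on the gene's strand, with the run in capitals. The run of Eif2b5 begins ahead of the bases given.
Eif3f, chr7:108934401-108934430, plus strand: ctgttctaggCTCTCTCTCTTTCTCggcaa
Eef1a1, chr9:78481709-78481738, minus strand: ctggctccgCCCTCTTCCCgagggtggggg
Eif2b2, chr12:85219467-85219496, plus strand: ttcaccgagcggaagttgaCCTCTCTCggc
Eif3l, chr15:79075209-79075238, plus strand: cgcggagttcttcttccgCTCTCTCCCacg
Eif2b5, chr16:20498803-20498832, plus strand: CTTCCTCTTTCTCTCCCTgcaactacacct
Eif2s3x, chrX:94212636-94212665, minus strand: tgccgagcattttCCTTTTCTCTCCgagca
Eif2s3y, chrY:1010581-1010610, plus strand: cggaggccacagccaCTTCCTTCTTTCgtg
Eef2, chr10:81176617-81176646, plus strand: ataaaaggccgggcgttgacgtcagcggtc
Of these 7 members, 6 were tested, and as deposited 5 had log2 differences above 0 and 1, Eif2s3x, below. Relative to all assigned reads all 6 were below 0. A match describes the letters at an annotated start, and the start used in these libraries was not measured. A run given above may therefore lie outside the messenger, and a messenger without a run here may still begin with a tract.

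The scanning and start codon factors split between eIF1 and eIF5. eIF1 guards start codon choice on the scanning ribosome, and its messenger Eif1 stood at 181 and 190 FPKM in WT and 263 and 488 FPKM in Piezo1KO (log2 difference 0.95, SE 0.35, adjusted p = 0.170, and -0.067 after quantile normalisation). Its paralog Eif1b ran beside it, at 37.9 and 39.3 against 61.2 and 106 FPKM (1.04, SE 0.29, adjusted p = 0.140). The ratio of Eif1 to Eif1b was 4.78 and 4.83 in WT and 4.30 and 4.62 in Piezo1KO. Eif5 (chr12:111538016-111546752), the GTPase activator that triggers GTP hydrolysis by eIF2 at the start codon, was the opposite. It stood at 56.7 and 62.9 FPKM in WT, a mean of 59.8 ± 4.41 (SD, n = 2), and at 32.6 and 31.5 FPKM in Piezo1KO, a mean of 32.1 ± 0.821 (n = 2). The log2 difference was -0.88 (SE 0.15, adjusted p = 0.0916), and the 2 Piezo1KO libraries were close together. Eif5 lay below 0 under every scaling tried. Eif1a, at 26.4 to 28.7 FPKM, and Eif1ax, at 11.9 to 19.6 FPKM, are near-identical copies of eIF1A whose reads may be shared, and both overlapped between the groups. Of the 5 genes of this group, 1 was below 0 as deposited and 3 were relative to all assigned reads. Relative to reads outside mitochondrial genes 2 were, after quantile normalisation 3, and with the trend with gene length taken out 2.

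Both members that act on subunit joining were higher in Piezo1KO at an unadjusted limma p under 0.05, as were 14.9% of all genes. Their log2 differences were above 0 under every scaling tried. Eif6, which keeps the large subunit from joining too early, stood at 51.4 and 47.4 FPKM in WT and 77.5 and 100.1 FPKM in Piezo1KO (0.82, SE 0.19, adjusted p = 0.126). Eif5b, the GTPase that joins the subunits, stood at 7.75 and 10.1 against 12.7 and 19.8 FPKM (0.78, SE 0.26, adjusted p = 0.154).

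The 3 subunits of eIF2, which carries the initiator tRNA, were measured at like levels in WT and parted in Piezo1KO 2. Eif2s1, the alpha subunit that stress kinases phosphorylate, stood at 32.9 and 31.1 FPKM in WT and 32.9 and 37.2 FPKM in Piezo1KO. Eif2s2, the beta subunit, stood at 27.8 and 27.1 against 29.7 and 34.8 FPKM. Eif2s3x, the X-linked gamma subunit, stood at 31.6 and 32.1 against 29.4 and 20.3 FPKM (log2 difference -0.37, SE 0.21, adjusted p = 0.289). The highest subunit exceeded the lowest 1.18 times in both WT libraries, 1.12 times in Piezo1KO 1 and 1.83 times in Piezo1KO 2, where Eif2s3x was the lowest. Eif2s3y, the Y-linked copy of the gamma subunit, had 12, 11, 44 and 2 reads in WT 1, WT 2, Piezo1KO 1 and Piezo1KO 2 and was below the filter. Eif2a and Eif2d, which are reported to deliver tRNA without eIF2, lay between 6.55 and 9.57 FPKM, and in both genes the Piezo1KO pair lay above the WT pair. Relative to all assigned reads all 5 tested genes of this group were below 0, and after quantile normalisation 3 were. Relative to reads outside mitochondrial genes 2 were.

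eIF2B recharges eIF2 with GTP and is the enzyme that phosphorylated eIF2 blocks. Eif2b5 (chr16:20498817-20509323), its catalytic subunit, stood at 42.7 and 43.5 FPKM in WT, a mean of 43.1 ± 0.580 (SD, n = 2), and at 66.8 and 72.8 FPKM in Piezo1KO, a mean of 69.8 ± 4.22 (n = 2). The log2 difference was 0.68 (SE 0.15, adjusted p = 0.118, and -0.11 relative to all assigned reads). Of the other 4 subunits, Eif2b4 had the Piezo1KO pair above the WT pair, at 13.0 and 13.9 against 15.9 and 22.3 FPKM, and the rest overlapped, Eif2b1 at 19.7 and 21.2 against 21.2 and 25.4 FPKM and Eif2b2 at 41.0 and 39.4 against 50.8 and 37.3 FPKM. Eif2b3 was the least abundant subunit in each library, at 2.39 to 3.68 FPKM, and Eif2b5 the most abundant, 12.6 and 18.2 times above it in WT and 20.5 and 19.8 times in Piezo1KO. All 5 subunits were above 0 as deposited, all 5 were below 0 relative to all assigned reads, and 2 were under each other scaling.

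The 4 kinases that phosphorylate eIF2 under stress all had log2 differences below 0, as they did under every scaling tried. Eif2ak3 (chr6:70844515-70905245) encodes PERK, the kinase of the unfolded protein response in the endoplasmic reticulum. It stood at 9.59 and 9.49 FPKM in WT, a mean of 9.54 ± 0.0715 (SD, n = 2), and at 4.88 and 4.52 FPKM in Piezo1KO, a mean of 4.70 ± 0.259 (n = 2). Its log2 difference of -0.89 (SE 0.12, adjusted p = 0.0717) was the lowest of the members, and both genotypes were tight around their means. Eif2ak4, which encodes GCN2, the sensor of uncharged tRNA, stood at 4.35 and 4.56 against 3.14 and 2.11 FPKM (-0.60, SE 0.19, adjusted p = 0.148). Eif2ak2, the double-stranded RNA sensor PKR, stood at 3.37 and 4.10 against 3.25 and 2.51 FPKM (-0.29, SE 0.18, adjusted p = 0.304). Eif2ak1, the haem-regulated kinase HRI, overlapped, at 11.4 and 10.9 against 11.2 and 8.47 FPKM (-0.17, SE 0.17, adjusted p = 0.505), and without Piezo1KO 2 it stood at 0.011. The ratio of Eif2ak1 to Eif2ak4 was 2.62 and 2.38 in WT and 3.58 and 4.01 in Piezo1KO, without overlap.

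Genes downstream of eIF2 phosphorylation, from a companion list of 47 translation genes outside the naming rule, were measured in the same fit. None of the 47 passed with limma, and 13 had an unadjusted p under 0.05. Of these 7 were higher, or 14.9% against 14.9% of all genes, and 6 lower, or 12.8% against 13.7%, so the list as a whole was near the rate of all genes. Ppp1r15a, the stress-induced subunit of the phosphatase that restores eIF2, had the lowest p of the list. It stood at 14.2 and 14.7 FPKM in WT and 36.5 and 30.8 FPKM in Piezo1KO (log2 difference 1.16, SE 0.15, adjusted p = 0.0595). By voom it passed, at an adjusted p of 0.0460, and over the other settings with all 4 libraries its adjusted p ran from 0.0446 to 0.469. Ddit3, the transcription factor CHOP, stood at 19.5 and 18.9 against 33.3 and 40.8 FPKM (0.91, SE 0.16, adjusted p = 0.0972). Trib3, a pseudokinase induced with it, stood at 42.6 and 33.4 against 70.3 and 80.7 FPKM (0.98, SE 0.19, adjusted p = 0.113). Atf4, which encodes the main transcription factor of this response, stood at 133 and 131 against 205 and 288 FPKM. As deposited these 4 genes lay higher in Piezo1KO without overlap, as did 33.9% of all genes. Under each other scaling 4 of the 6 genes of this response were above 0. Ppp1cc overlapped, and Ppp1r15b was lower in Piezo1KO, at 32.9 and 30.6 against 22.0 and 30.3 FPKM.

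eIF3 is the largest initiation factor and the scaffold of the preinitiation complex. Of 14 eIF3 genes tested, 13 had differences above 0, and the groups did not overlap for 10, all higher in Piezo1KO, or 71.4% against 33.9% of all genes. An unadjusted p under 0.05 was reached by 6, all higher, or 42.9% against 14.9% of all genes. Relative to all assigned reads 12 of the 14 were below 0, yet 12 stood above the median of all genes, and after quantile normalisation 7 were above 0 and 7 below. Relative to reads outside mitochondrial genes 4 were below 0, and with the trend with gene length taken out 3 were. Eif3k, a small subunit absent from budding yeast, had the largest log2 difference of the members, at 37.3 and 34.8 FPKM in WT and 63.4 and 128 FPKM in Piezo1KO (1.30, SE 0.36, adjusted p = 0.139). Without Piezo1KO 2 its difference was 0.80.

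Other eIF3 subunits were tighter between libraries. Eif3d, a subunit that can itself bind the cap of some messengers, stood at 29.9 and 29.3 against 46.9 and 57.4 FPKM (0.79, SE 0.16, adjusted p = 0.118, and -0.0040 relative to all assigned reads). Eif3g, which binds RNA, stood at 46.1 and 45.4 against 70.9 and 86.2 FPKM (0.76, SE 0.17, adjusted p = 0.122, and -0.038 relative to all assigned reads). Eif3i, which belongs to the core shared with yeast, stood at 33.8 and 29.6 against 48.9 and 71.7 FPKM (0.88, SE 0.23, adjusted p = 0.133). In all 3 the Piezo1KO pair lay clear of the WT pair. Eif3f and Eif3h form a pair of related subunits. Eif3f stood at 75.2 and 73.1 against 110 and 123 FPKM (0.64, SE 0.16, adjusted p = 0.132, and -0.16 relative to all assigned reads). Eif3h, at 149 and 152 against 215 and 266 FPKM (0.66, SE 0.20, adjusted p = 0.148, and -0.15 or -0.14 relative to all assigned reads or after quantile normalisation), was the most abundant subunit in both Piezo1KO libraries.

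Among the large core subunits of eIF3 the groups parted for Eif3b and Eif3c and overlapped for Eif3a. Eif3b, the most abundant subunit in WT, stood at 155 and 154 against 191 and 187 FPKM, and Eif3c at 116 and 124 against 161 and 148 FPKM. Eif3a, the largest, stood at 73.3 and 77.0 against 74.2 and 58.3 FPKM. Of the remaining subunits, Eif3e stood at 33.3 and 31.0 against 34.1 and 41.3 FPKM and Eif3j1 at 11.2 and 10.5 against 12.3 and 13.8 FPKM. Eif3l, at 78.1 and 74.5 against 89.2 and 72.7 FPKM, and Eif3m, at 40.2 and 36.0 against 37.6 and 49.5 FPKM, overlapped between the groups. The ratio of Eif3k to Eif3a was 0.509 and 0.452 in WT, 0.854 in Piezo1KO 1 and 2.20 in Piezo1KO 2. Across the 13 subunits other than Eif3j2, a near copy of Eif3j1, the highest exceeded the lowest 13.9 and 14.7 times in WT and 17.5 and 19.2 times in Piezo1KO.

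The 3 eIF4G scaffolds, which link the cap to the ribosome, had 2 lower members and 1 level one. Eif4g1 (chr16:20668313-20692884), the main scaffold, stood at 156 and 158 FPKM in WT, a mean of 157 ± 1.71 (SD, n = 2), and at 118 and 92.5 FPKM in Piezo1KO, a mean of 105 ± 17.8 (n = 2), a log2 difference of -0.59 (SE 0.20, adjusted p = 0.158). Eif4g3, its paralog, stood at 11.6 and 13.8 against 8.79 and 7.54 FPKM (-0.58, SE 0.16, adjusted p = 0.135), so their ratio overlapped, at 13.4 and 11.5 in WT and 13.4 and 12.3 in Piezo1KO. Eif4g2, a relative that lacks the site for eIF4E and serves initiation without it, was level at 128 and 130.0 against 125 and 131 FPKM (-0.012, SE 0.17, adjusted p = 0.964). The ratio of Eif4g1 to Eif4g2 was 1.22 in both WT libraries, 0.941 in Piezo1KO 1 and 0.709 in Piezo1KO 2. Eif4g1 and Eif4g3 were below 0 under every scaling tried, and Eif4g2 turned to 0.30 once the trend with gene length was taken out.

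Eif4e, the main cap-binding protein, stood at 22.3 and 21.1 FPKM in WT and 23.2 and 24.9 FPKM in Piezo1KO (log2 difference 0.14, SE 0.13, adjusted p = 0.477), and its sign turned under 3 scalings. Eif4e2, best known as a repressor, stood at 8.48 and 9.19 against 10.8 and 11.9 FPKM, and Eif4e3 stayed between 10.2 and 10.6 FPKM. All 3 were below 0 relative to all assigned reads. Relative to reads outside mitochondrial genes 2 were, after quantile normalisation 2, and with the trend with gene length taken out 1. Eif4a1, the main helicase, stood at 146 and 153 against 163 and 166 FPKM (0.14, SE 0.17, adjusted p = 0.592), likewise with a sign that turned under 3 scalings. Eif4a2, its paralog, stood at 27.1 and 31.9 against 19.7 and 28.5 FPKM (-0.30, SE 0.22, adjusted p = 0.388) and overlapped. Their ratio was 5.38 and 4.79 in WT and 8.26 and 5.82 in Piezo1KO. Eif4a3, a related helicase of the exon junction complex rather than of initiation, stood at 67.0 and 64.3 against 91.4 and 89.3 FPKM (0.46, SE 0.15, adjusted p = 0.153, and -0.35 relative to all assigned reads or -0.060 after quantile normalisation). The helicase cofactors Eif4b, at 101 and 102 against 125 and 137 FPKM, and Eif4h, at 76.9 and 76.4 against 82.4 and 84.1 FPKM, had the Piezo1KO pair above the WT pair. All 5 helicase genes were below 0 relative to all assigned reads and after quantile normalisation. Relative to reads outside mitochondrial genes 3 were.

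The inhibitors of eIF4E parted by paralog. Eif4ebp1 (chr8:27260329-27276674) encodes 4E-BP1, which mTORC1 phosphorylates to release eIF4E. It stood at 41.9 and 39.4 FPKM in WT, a mean of 40.7 ± 1.77 (SD, n = 2), and at 74.0 and 93.7 FPKM in Piezo1KO, a mean of 83.9 ± 13.9 (n = 2). The log2 difference was 1.02 (SE 0.18, adjusted p = 0.0990), the smallest adjusted p among members higher in Piezo1KO, and it was above 0 under every scaling tried, at 0.22 relative to all assigned reads. Eif4ebp2 stood at 54.7 and 57.5 against 52.0 and 43.4 FPKM (-0.23, SE 0.16, adjusted p = 0.361). The ratio of Eif4ebp1 to Eif4ebp2 was 0.767 and 0.685 in WT and 1.42 and 2.16 in Piezo1KO, so the more abundant inhibitor differed between the groups. The ratio of Eif4ebp1 to its target Eif4e was 1.88 and 1.87 in WT and 3.19 and 3.77 in Piezo1KO. Eif4enif1, the transporter 4E-T that binds eIF4E in repressed messengers, stood at 9.20 and 10.4 against 7.61 and 5.78 FPKM (-0.49, SE 0.17, adjusted p = 0.161).

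**Figure D4:**
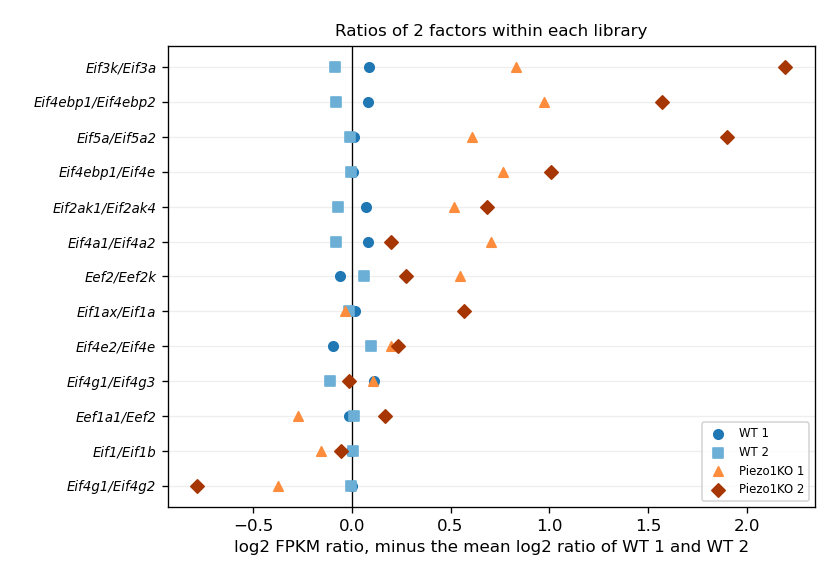
Ratios of 2 members within each library, as log2 relative to the WT mean, for 13 pairs (1 point per library). The groups do not overlap for 10 pairs, 8 higher and 2 lower in Piezo1KO, and Piezo1KO 2 lies farthest out for Eif3k/Eif3a and Eif5a/Eif5a2.

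Because both genes of a ratio share a library, a ratio does not depend on the factor by which that library was scaled, though quantile normalisation and removal of the length trend do move ratios. Of 13 pairs with a value in every library, Piezo1KO lay above WT for 8 and below for 2, and 3 overlapped. Over all single genes 33.9% lay above and 35.6% below without overlap, so the count of parted pairs is read as a description. With 2 libraries against 2, an exact test cannot go below p = 0.333, and no ratio was tested.

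The genes of mTORC1 and its signalling, which act on the 4E-BPs, leaned low. They were not split by whether a gene raises or lowers mTORC1 activity, so the lean gives no direction for that activity. Of 10 genes, 8 had log2 differences below 0, as did 8 or more under every scaling tried. With limma 0 passed, against 1.1% of all genes. At an unadjusted limma p under 0.05 there were 4, all lower, or 40% against 13.7% of all genes. The groups did not overlap for 5 lower, or 50% against 35.6% of all genes, and for 1 higher, or 10% against 33.9%. The median of -0.31, against -0.0059 for all genes, was -0.10 with the trend with gene length taken out, and the median length of these genes was 8766 bases. Mtor, the kinase, stood at 6.41 and 6.92 against 4.66 and 2.01 FPKM, and Rptor, the scaffold, at 5.56 and 5.60 against 3.80 and 2.52 FPKM. Tsc1 stood at 3.70 and 3.82 against 2.50 and 2.10 FPKM, and Deptor at 4.86 and 4.62 against 3.28 and 2.00 FPKM. Larp1, a repressor of messengers with oligopyrimidine tracts, belongs to another group of the companion list. It stood at 34.3 and 36.1 against 22.9 and 16.2 FPKM (-0.84, SE 0.21, adjusted p = 0.129). In each of these genes the groups did not overlap. Over the whole companion list 24 differences were above 0 and 23 below, with a median of 0.036.

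Higher and lower members also differed in gene length. Over the 63 tested members the log2 difference went with the logarithm of gene length at a Pearson correlation of -0.557 and a Spearman correlation of -0.552, and over all 11085 genes at -0.356 and -0.522. These are correlations across genes that share the same 4 libraries, given as a description. Of the 21 shortest members, at 947 to 2600 bases, all 21 had differences above 0 with a median of 0.48. The middle 21, at 2678 to 5338 bases, had a median of 0.29 with 5 below 0, and the longest 21, at 5551 to 11063 bases, a median of 0.12 with 9 below 0. All 14 members below 0 were at least 3812 bases long. With the trend over all genes taken out the members' median was 0.26, with 43 above 0 and 20 below. Eif5b at 9753 bases and Eef1d at 6488 bases were long members with differences well above 0.

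**Figure D5:**
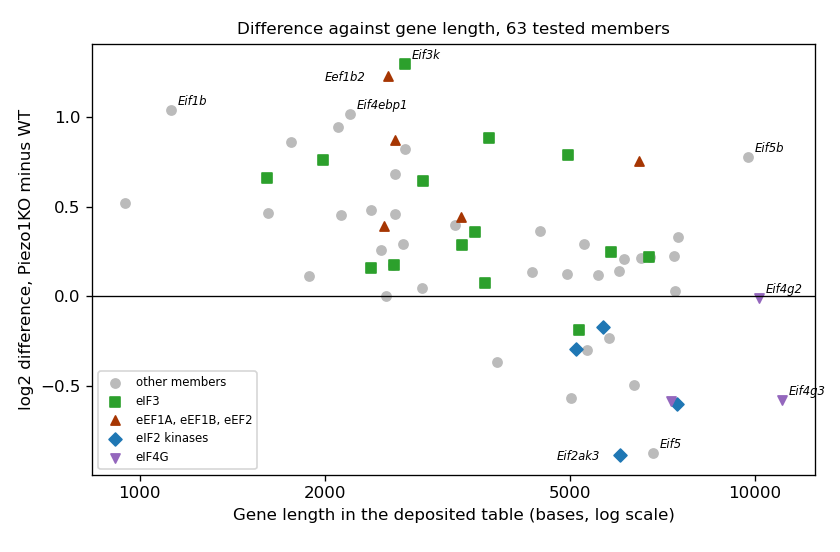
Log2 difference, Piezo1KO minus WT, against gene length (log axis) for the 63 tested members, with eIF3, the core elongation factors, the eIF2 kinases and the eIF4G scaffolds marked. The members below 0 all lie at 3812 bases or more.

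Besides Eef1a2 and Eif2s3y, 3 members were below the filter. Eif4ebp3 had 5 reads in each WT library and 0 in both Piezo1KO libraries, Eef1akmt3 had 12 and 4 against 6 and 1, and Eif4e1b, the cap-binding protein of oocytes, had 0 in all 4. By counting error alone 0 reads allow up to 3, which for Eif4e1b is 0.0654 to 0.178 FPKM over the libraries. Members that bear a factor's symbol but act elsewhere were Eif1ad, at 19.8 and 22.1 against 22.6 and 28.1 FPKM, and Eef1e1, of the complex of tRNA synthetases, at 7.55 and 7.42 against 8.79 and 11.8 FPKM. Neither overlapped between the groups, and both were below 0 relative to all assigned reads. Read sharing limits some other members. The strand setting of the counting is not given, and 8 members overlap a gene of higher FPKM, among them Eif2b4 with Snx17, Eif2ak1 with Aimp2, Eif4enif1 with Drg1 and Eif2a with Serp1. An Eif4a pseudogene, Eif4a-ps4, was listed at 80.5, 86.4, 98.4 and 76.6 FPKM, so reads of the eIF4A genes and of this copy may have been split between them. The other 8 pseudogenes named for members were under 3 FPKM in each library.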

How the data were processed

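The authors deposited 1 table with an FPKM value for 54532 genes in each of 4 libraries, beside gene length. Per the submitters' processing notes, the tools were fastp 0.19.7 and featureCounts 1.5.0-p3 and the build mm10 (GRCm38). Aligner, strand setting and FPKM formula were not given in the sources used here. Once multiplied by length, 100% of FPKM values were whole multiples of a per-library step (tolerance 0.05 reads), and division by it recovered whole reads per gene. The library size implied by that step was 1.26, 1.28, 0.962 and 0.544 times the assigned reads in WT 1, WT 2, Piezo1KO 1 and Piezo1KO 2, numbered by the titles. The voom alternative ran on these reads.

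Differences are Piezo1KO minus WT of log2(FPKM + 1), a scale that understates the change of low genes. They were fitted with limma 3.58.1 in R 4.3.3 (eBayes with an intensity trend) over the 11085 genes whose mean FPKM reached 1, with 2 residual and 2.59 prior degrees of freedom. P-values are two-sided, adjusted by Benjamini-Hochberg over those genes, with a threshold of 0.05. The fit was also run on simulated data, drawn with one setting of spread for all libraries and no trend with gene length. That run does not show how the fit behaves where the genotypes differ in spread, as they do here. The members, the role classes, the companion list and the cell type markers were chosen with earlier results of these data known. Named genes are Piezo1, members passing the test, in each role class the 2 most abundant and the 2 with the smallest p, all genes of paralog pairs and small classes, and the 4 companion genes with the smallest p; other members and companion genes are given by their values. Alternatives changed the pseudocount, the filter, the scaling, the gene length trend, the genes tested, a replicate block and the libraries. Promoter sequences are from RefSeq, GRCm38.p6.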

Additional observations from a re-analysis of the deposited data

How the results depend on the processing

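The number of genes passing limma was 122 of 11085 as deposited (81 higher, 66.4%), 1 with no filter, 68 at a mean FPKM of at least 5, 1707 scaled to all assigned reads (16.2% of them higher), 192 after quantile normalisation, 76 with the gene length trend removed (42.1% higher) and 0 to 5859 with a library left out. Members called were 0, except 6 with all assigned reads, 2 after quantile normalisation and 0 to 41 with a library left out. Companion genes called were 0, except 6 with all assigned reads, 1 with protein-coding genes alone, 1 by voom and 0 to 25 with a library left out. The members' median was 0.25 as deposited, -0.50 with all assigned reads, 0.041 outside mitochondrial genes, -0.066 after quantile normalisation and 0.21 to 0.33 with a library left out. The cause of these moves was not tested. The fall in calls with no filter came with 23654 genes tested. With all assigned reads these log2 differences changed sign: Eef1a1 -0.42, Eef1d -0.037, Eef2 -0.37, Eif2b5 -0.11, Eif3d -0.0040, Eif3f -0.16, Eif3g -0.038, Eif3h -0.15, Eif4a1 -0.67, Eif4a3 -0.35, Eif4e -0.63 and Eif5a -0.33. Outside mitochondrial genes Eif4a1 was at -0.086 and Eif4e at -0.074. After quantile normalisation the signs changed of Eef1a1 -1.62, Eef1g -0.15, Eef2 -1.21, Eif1 -0.067, Eif3h -0.14, Eif4a1 -0.62, Eif4a3 -0.060, Eif4e -0.066 and Eif5a -0.67. Eif4g2 was at 0.30 with the length trend removed and at -0.042 to 0.019 with a library left out, and Eif2ak1 at -0.36 to 0.011. The share of reads taken by the members was -0.749 percentage points in Piezo1KO minus WT, -1.24 to -0.260 with a library left out, and 0.316 outside mitochondrial genes. For the 38 genes whose fold change is printed, a pseudocount of 0.1, no filter and the replicate block left 38 on the same side of the threshold with the same sign. With a replicate block 264 genes passed limma and 0 members did. At an unadjusted limma p under 0.05 there were then 17 of 63 members and 3003 of 11085 genes. Same-numbered libraries did not deviate together (r = -0.033 over 11085 genes). With 2 libraries per group this cannot decide whether same-numbered libraries shared an animal or a day. The 2 planned count-model alternatives, with different size factors, were not run, and voom on recovered reads was added after the data were seen. Depth limits the 5 members under the filter, each at 44 reads or fewer in every library.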
